A study of Mus musculus with 19 samples.

Results

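The negative limb of the circadian clock was followed over the day through 6 genes, the Period genes Per1, Per2 and Per3, the cryptochrome genes Cry1 and Cry2, and Ciart, which encodes the repressor CHRONO. The members were taken by symbol from the gene table, which listed 50559 genes, and all 6 were among the 15572 genes with enough counts to be tested. Ribosome-bound mRNA was measured in spinal cord cholinergic neurons of 10-wk-old wild-type male C57BL/6J mice housed under 12 h of light and 12 h of darkness. Every animal carried ChAT-Cre, which drives Cre recombinase in cells that express choline acetyltransferase, and 1 copy of the RiboTag allele (RiboTag fx/+), which makes those cells build ribosomes that carry a hemagglutinin tag. Spinal cords were collected at Zeitgeber time (ZT, hours after lights on) 0, 4, 8, 12, 16 and 20, with 3 biological replicates at each time and 1 spinal cord per homogenate, and the tagged ribosomes were precipitated. This gave 18 immunoprecipitates, beside 1 library of pooled input (unprecipitated homogenate). ChAT-Cre marks all cholinergic cells, so motor neurons and cholinergic interneurons were not separated.

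In the mammalian clock the activators CLOCK and BMAL1 bind E-box elements and raise transcription of the Per, Cry and Ciart genes. PER and CRY proteins then enter the nucleus together and shut off the activators, which lowers their own transcription until the proteins are degraded and a new cycle starts. CHRONO binds BMAL1 and represses it as well, while D-box elements, read by the PAR bZIP factors DBP, TEF and HLF and by the repressor NFIL3, add a second input to some of these genes.

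The sequences printed here are the stretches of the promoters in which letters of these elements were found, since E-boxes and D-boxes are the elements through which these genes are read. RefSeq promoters on GRCm38.p6 (mm10) were searched over the 250 bases before each annotated start on both strands, and 5 of the 6 members had an entry. Per2 had none and was not searched. The letters were CACGTG for the E-box, CACGTT for the E′-box, TTATGTAA or TTACGTAA for the D-box and TGACGTCA for the cAMP response element (CRE). These 4 sets of letters do not overlap each other in the stretches shown. Capitals mark the matches, and every stretch is written 5′ to 3′ on the strand of its gene, so that an E′-box on the opposite strand reads AACGTG.
Ciart, minus strand, chr3:95882242-95882369: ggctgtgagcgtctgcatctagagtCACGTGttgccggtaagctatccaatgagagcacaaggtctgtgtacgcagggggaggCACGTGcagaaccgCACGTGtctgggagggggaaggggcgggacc
Per3, minus strand, chr4:151044791-151044895: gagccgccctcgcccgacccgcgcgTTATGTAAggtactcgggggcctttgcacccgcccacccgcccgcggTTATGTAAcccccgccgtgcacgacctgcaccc
Cry1, minus strand, chr10:85185084-85185158: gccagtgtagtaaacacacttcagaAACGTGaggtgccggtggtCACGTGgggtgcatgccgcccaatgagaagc
Per1, plus strand, chr11:69098758-69098813: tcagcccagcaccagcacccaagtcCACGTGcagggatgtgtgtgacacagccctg
Cry2, minus strand, chr2:92434205-92434260: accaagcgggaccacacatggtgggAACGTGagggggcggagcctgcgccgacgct
Ciart held 3 E-boxes, at 116, 58 and 44 bases before its start, a number reached by 20 of the 32851 promoters searched (0.0609%). Per3 held no E-box in this window but 2 D-boxes, at 205 and 158 bases, which 7 promoters did (0.0213%). The farther D-box also lies inside the annotated model of Gm38529, a protein-coding gene that held 33 counts over all 18 immunoprecipitates. Cry1 held an E-box at 60 bases and an E′-box at 79, 1 of the 2 Per1 promoters held an E-box at 166, and Cry2 held an E′-box alone, also at 166. The 2 Per1 promoters, and so the Per1 stretch shown, lie inside the RefSeq model of Per1, which starts at 69095108. The bases before that start were not searched. At least 1 E-box stood in 6.02% of all promoters, an E′-box in 3.85%, a D-box in 0.932% and a CRE in 1.55%, and none of the 5 members searched matched the CRE letters here. A match is a description of letters and was not tested as a binding site.

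All 6 members are annotated as protein-coding genes. On GRCm38.p6, RefSeq places Per1 on chromosome 11 from 69095108 to 69109965 (plus strand), Per2 on chromosome 1 from 91415977 to 91459351, Per3 on chromosome 4 from 150997018 to 151044707, Cry1 on chromosome 10 from 85131700 to 85185054, Cry2 on chromosome 2 from 92403646 to 92434085 and Ciart on chromosome 3 from 95878500 to 95882257, all on the minus strand except Per1. The RefSeq model of Per3 overlaps Uts2, the urotensin 2 gene on the opposite strand, over 4714 bases, whereas the GENCODE model starts at 151003652, beyond Uts2. Levels are given in CPM, the count relative to the library size after TMM scaling, which sets the bulk of genes equal between libraries. Uts2 was abundant in the immunoprecipitates (188 ± 26.9 CPM, SD, n = 18), and across the 18 libraries its log2 CPM ran against that of Per3 (Pearson r -0.38, Spearman rho -0.36). The libraries were made with a kit that keeps strand, but whether the counting used it is not given in the sources used here. Long noncoding RNAs overlap Per2 (Gm35591), Cry2 (D930015M05Rik) and Ciart (C920021L13Rik), and over all 18 immunoprecipitates they held 0, 0 and 16 counts.

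The libraries held 6302150 to 22406844 expected counts for the immunoprecipitates and 15239792 for the input. The 2 shallowest were ZT20 replicate 1 and ZT4 replicate 3. Of 7 cholinergic neuron markers, 6 were over 2-fold higher on average than in the input and higher in all 18 precipitates, and Chat was higher in 17. All 7 oligodendrocyte, 6 astrocyte, 6 microglial and 4 endothelial markers were over 2-fold lower on average and lower in every precipitate. Oligodendrocyte RNA remained in the precipitates, with the 7 markers summing to 1534 to 2928 CPM per library against 21722 in the input. Counts behind the members ran per library from 140 to 669 for Per1, 13 to 116 for Per2, 16 to 205 for Per3, 19 to 101 for Cry1, 631 to 2625 for Cry2 and 44 to 250 for Ciart. At the median count, counting error alone was 14.1% for Per2, 13.6% for Cry1, 8.98% for Per3, 8.29% for Ciart, 5.12% for Per1 and 2.34% for Cry2.

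Only Per3 passed the test for a 24-h rhythm, with its highest mean CPM at ZT12 and its lowest at ZT0, a 2.18-fold range. ZT4 was close to ZT0 (5.12 against 4.99 CPM) and was the lowest on the log2 scale (2.22 against 2.34). Per1 and Per2 were lowest at ZT4 and Ciart was highest at ZT12, without passing that test, and Cry2 varied by 1.16-fold between its lowest and highest time. The 24-h cosinor in edgeR (quasi-likelihood F-test of cosine and sine terms, Benjamini-Hochberg adjusted over all 15572 genes) called 1 of the 6 members, where 972 genes, or 6.24% of all tested, were called. At an unadjusted p below 0.05 there were 3 members, Per1, Per2 and Per3, of 4153 genes. The median amplitude (the distance from mean to peak on the log2 scale) was 0.26 over the 6 members against 0.18 over all genes tested.

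**Figure D1:**
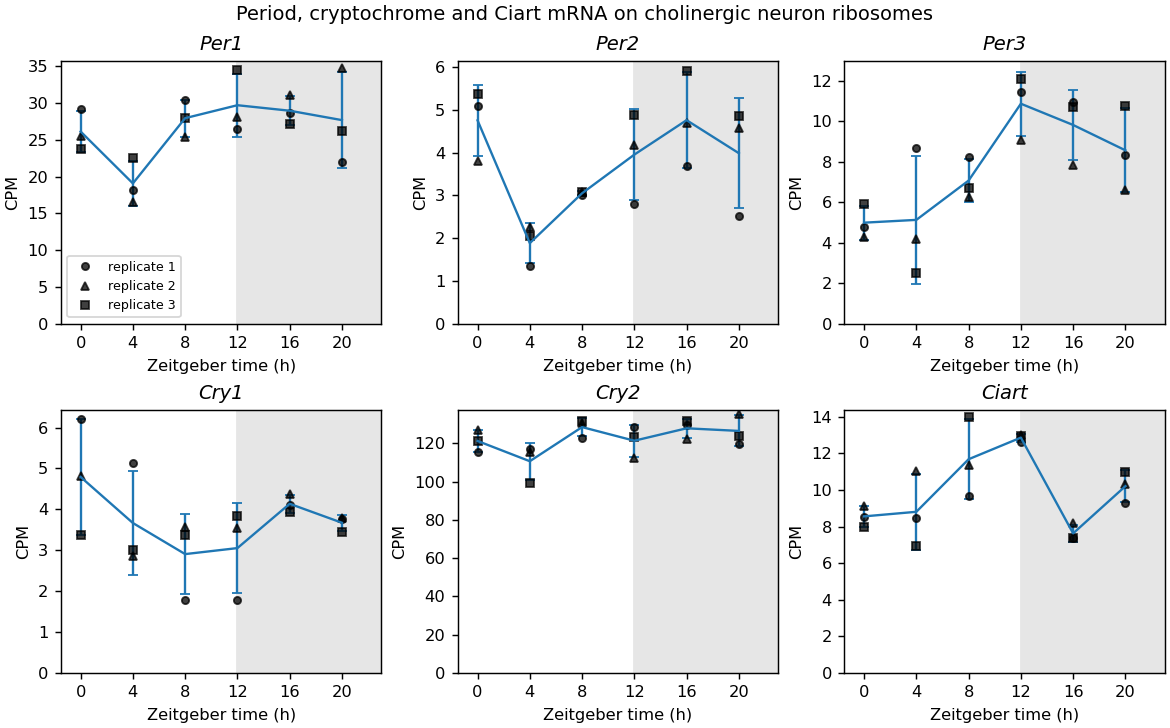
CPM of the 6 repressor genes in the 18 immunoprecipitates (vertical axes, each from 0) against Zeitgeber time in hours (horizontal axis), with the dark phase shaded, 1 symbol per animal, and lines and bars for the mean and SD of 3 animals. Per3 rises to a mean of 10.9 CPM at ZT12, Per1 and Per2 have their lowest means at ZT4, and Cry2 stays between 99.5 and 136 CPM.

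Per3, the Period gene whose loss alters the rhythm of mice the least, had 4.79, 4.26 and 5.91 CPM in the 3 animals at ZT0. At ZT4 it had 8.66, 4.19 and 2.52 CPM, the widest spread of any time point, and at ZT8 8.24, 6.26 and 6.70 CPM. All 3 animals at ZT8 were above all 3 at ZT0, while ZT4 replicate 1 stood above every animal at ZT8. The level reached 11.4, 9.07 and 12.1 CPM at ZT12, then 10.9, 7.81 and 10.7 CPM at ZT16 and 8.33, 6.60 and 10.7 CPM at ZT20. The 9 animals of ZT12 to ZT20 were all above every animal of ZT0. The fitted amplitude was 0.58 on the log2 scale with a peak at ZT14.4 (edgeR, adjusted p = 0.0373). A least-squares cosinor on log2 CPM gave 0.64 ± 0.13 (SE) with an SE of 0.79 h on the peak, and took 60.8% of the variance over the 18 libraries. The fold from ZT0 to ZT12 was 1.12 ± 0.30 (SE) on the log2 scale with no overlap between groups and did not pass the adjustment in that pair (edgeR, adjusted p = 0.577).

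The call of Per3 was close to the threshold. It was lost in 9 of 18 fits that left out 1 library, namely ZT0 replicate 2, ZT4 replicate 2, ZT4 replicate 3, ZT8 replicate 2, ZT8 replicate 3, ZT12 replicate 1, ZT16 replicate 1, ZT16 replicate 2 and ZT20 replicate 1, with adjusted p (edgeR) over the 18 fits from 0.00865 to 0.120. The amplitude stayed between 0.51 and 0.71 and the peak between ZT13.9 and ZT14.7 in these fits. With the oligodendrocyte marker score in the model the amplitude was 0.59 and the adjusted p 0.0584 (edgeR), and the part of these markers in the result was not tested further. The call was also lost with the first principal component of the libraries in the model (amplitude 0.57, edgeR, adjusted p = 0.129) and without the 2 shallowest libraries (amplitude 0.51, edgeR, adjusted p = 0.0924), and over all alternatives that kept every library the adjusted p ran from 9.89e-04 to 0.129.

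Per1, the Period gene that also responds quickly to light and glucocorticoids, started at ZT0 with 29.1, 25.6 and 23.7 CPM and had 18.1, 16.5 and 22.5 CPM at ZT4. The ZT8 animals gave 30.4, 25.4 and 28.01 CPM, those of ZT12 26.4, 28.1 and 34.5 CPM, those of ZT16 28.6, 31.1 and 27.2 CPM, and the last group, ZT20, 22.01, 34.8 and 26.3 CPM. ZT4 was the low point, with all 3 animals below every animal at ZT0, ZT8, ZT12 and ZT16, and 1 animal at ZT20 also fell in its range. The cosinor gave an amplitude of 0.23 with a peak at ZT15.1 (edgeR, adjusted p = 0.116), and the least-squares SE on the peak was 1.28 h. From ZT4 to ZT12 the log2 difference was 0.66 ± 0.16 (SE; edgeR, adjusted p = 0.384), and from ZT4 to ZT16 it was 0.62 ± 0.16 (edgeR, adjusted p = 0.0881). All 5 comparisons of ZT4 with another time had an unadjusted p below 0.05, and none passed the adjustment. That unadjusted level was reached by 3111 of all 15572 genes against ZT0 and by 927 against ZT8. It was reached by 1432 against ZT12, 3158 against ZT16 and 1216 against ZT20. The 5 comparisons share the same 3 animals of ZT4.

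Per2, the Period gene whose loss shortens and then abolishes the rhythm of wheel running, had the same low time. Its ZT0 animals had 5.09, 3.81 and 5.36 CPM, and the ZT4 animals only 1.35, 2.25 and 2.05. In the ZT8 group the values were 3.00, 3.07 and 3.07 CPM. The dark phase gave 2.80, 4.17 and 4.89 CPM (ZT12), 3.67, 4.69 and 5.91 CPM (ZT16) and 2.52, 4.57 and 4.86 CPM (ZT20). Every animal at ZT4 was below all 15 animals of the other times, and replicate 1 was the lowest of its group at every time except ZT0. The ZT4 mean of 1.88 ± 0.474 CPM (SD, n = 3) was 2.53-fold below the ZT16 mean of 4.76 ± 1.12. In edgeR the log2 difference from ZT0 to ZT4 was -1.34 ± 0.32 (SE; adjusted p = 0.106), a comparison in which no gene passed the adjustment and 3111 had an unadjusted p below 0.05. The difference from ZT4 to ZT16 was 1.34 ± 0.32 (SE; edgeR, adjusted p = 0.0751). The cosinor amplitude was 0.47 with a peak at ZT17.8 (edgeR, adjusted p = 0.108), and the least-squares SE on the peak was 1.22 h.

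Oligodendrocyte markers moved with Per2. Over the 18 libraries, log2 CPM of Per2 ran with the oligodendrocyte score (the mean log2 CPM of its 7 markers) at Pearson r 0.59 and Spearman rho 0.57, against r from -0.01 to 0.30 for the other 5 members. The summed oligodendrocyte markers averaged 1735 CPM at ZT4, the lowest of the 6 times, and 2286 CPM at ZT16, the highest, with ranges of 1534 to 1864 and 1962 to 2928. With the oligodendrocyte score in the model, the cosinor amplitude of Per2 was 0.37 (edgeR, adjusted p = 0.218), and its adjusted p in the test of any difference among times was 0.110 against 0.0620 without the score. The 6 astrocyte markers had their lowest mean sum at ZT8 (149 CPM), near that of ZT4 (152), and their highest at ZT12 (186), and the 6 microglial markers lay between 11.3 and 12.0 CPM at every time. The part of astrocytes and microglia in the course of Per2 was not tested. In bulk precipitates, fewer cells of a type and less RNA per cell cannot be told apart.

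Cry1, the cryptochrome that peaks late in most tissues, was scarce and showed no pattern beyond its spread. The CPM values were 6.20, 4.80 and 3.37 (ZT0), 5.13, 2.87 and 3.00 (ZT4), 1.77, 3.56 and 3.38 (ZT8) and 1.78, 3.54 and 3.83 (ZT12). Later in the dark phase the animals lay close together, with 4.10, 4.36 and 3.94 CPM in the ZT16 group and 3.77, 3.79 and 3.44 CPM in the ZT20 group. Replicate 1 held the highest value at ZT0 and ZT4 and the lowest at ZT8 and ZT12. The amplitude was 0.29 with a peak at ZT21.9 (edgeR, adjusted p = 0.346), and the least-squares amplitude was 0.30 ± 0.13 (SE). None of the 15 pairs of time points gave an unadjusted p below 0.05.

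Cry2, the other cryptochrome, was the most abundant member and the steadiest. Its lowest mean was that of ZT4, 111 ± 9.75 CPM (SD, n = 3 here and for each mean). ZT0 and ZT12 both averaged 121 CPM (± 5.79 and ± 8.42), and ZT20, ZT16 and ZT8 had 127 ± 8.11, 128 ± 4.92 and 129 ± 4.77. The lowest of the 18 libraries, 99.5 CPM, was ZT4 replicate 3, and the highest, 136 CPM, was ZT20 replicate 2. The spread over all 18 was 7.12% (coefficient of variation) against 18.3% for Per1, 21.99% for Ciart, 28.6% for Cry1, 34.5% for Per2 and 36.0% for Per3. The amplitude was 0.06 (edgeR, adjusted p = 0.527), and the least-squares fit gave 0.07 ± 0.03 (SE).

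Ciart, the gene with 3 E-boxes in the stretch shown, was highest around the end of the light phase. The ZT0 animals had 8.53, 9.15 and 7.99 CPM, the ZT4 animals 8.46, 11.0 and 6.94, and the ZT8 animals 9.67, 11.4 and 14.0. The 3 animals of ZT12 were nearly equal, with 12.6, 13.0 and 12.9 CPM, and those of ZT16 had 7.35, 8.19 and 7.35. By ZT20 the values were 9.28, 10.3 and 11.0 CPM. All animals of ZT8 and ZT12 were above all animals of ZT16, and those of ZT20 lay between the groups of ZT12 and ZT16 without touching either. Between ZT8 and ZT16 the level fell by 0.61 on the log2 scale (SE 0.18, edgeR, adjusted p = 0.0263). The larger difference from ZT12 to ZT16, -0.75 ± 0.18 (SE), had an adjusted p of 0.727 (edgeR). In that pair 903 genes had an unadjusted p below 0.05 and none passed the adjustment. The cosinor gave an amplitude of 0.23 and a peak at ZT10.1 with a least-squares SE of 1.64 h (edgeR, adjusted p = 0.204).

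That fall of Ciart was the only one of 90 member-and-pair tests to pass the adjustment, where 2.33% of all gene-and-pair tests did. ZT16 against ZT8 was a comparison in which 2633 genes, 16.9% of those tested, were called, so 1 called member of 6 was close to that share. The call was lost without ZT8 replicate 2, ZT8 replicate 3, ZT16 replicate 1, ZT16 replicate 2 or ZT16 replicate 3, and also with the filter of at least 1 count in total and with the first principal component in the model. Each fit without all libraries of 1 replicate number (1, 2 or 3) lost it as well. Groups did not overlap in 31 of the 90 member-and-pair comparisons, against 16.8% of such comparisons over all genes tested. These 31 were 8 for Ciart, 7 for Per2, 6 for Per3, 4 for Per1 and 3 each for Cry1 and Cry2, and they share groups with each other.

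The members' calls in the test without a fixed wave form depended on the tool. The edgeR test of any difference among the 6 times called 0 of 6, where 6.74% of all genes were called. Adjusted p (edgeR) was 0.0540 for Ciart, 0.0620 for Per2, 0.0648 for Per3 and 0.0822 for Per1. These 4 had an unadjusted p below 0.05, a level whose share over all genes was not recorded for this test. DESeq2 called those same 4 in this test, with adjusted p from 0.00493 for Per3 to 0.0202 for Per1, and it called 2502 genes where edgeR called 1050. JTK_Cycle, a rank test against cosine curves of 20, 24 and 28 h, called 0 of 6 after adjustment over genes, where 0.0385% of all genes passed. Without that adjustment 15.8% of genes passed within the gene, and of the members Per3 did (exact null, p = 0.00370, adjusted p = 0.114, period 24 h, peak ZT14). By the exact null of JTK_Cycle, Per1 and Per2 had p = 0.1002, and Ciart, Cry1 and Cry2 had 0.496, 0.624 and 0.996.

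**Figure D2:**
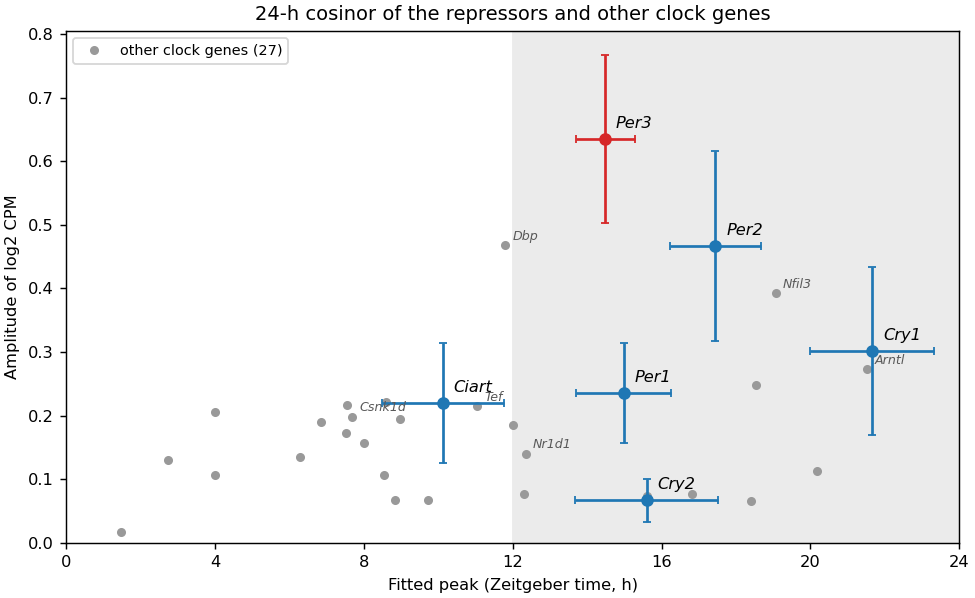
Amplitude in log2 CPM (vertical axis) against fitted peak in Zeitgeber hours (horizontal axis) from least-squares 24-h cosinors over 18 immunoprecipitates, with SE bars for the 6 repressor genes (red marks the gene called by edgeR) and grey points for 27 other clock genes. Per3 has the highest amplitude, 0.64, and the members' peaks run from ZT10.1 for Ciart to ZT21.7 for Cry1.

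Fitted peaks were spread over the day, although only that of Per3 belongs to a gene that passed the rhythm test. By least squares they ran from Ciart (ZT10.1 ± 1.64 h, SE) through Per3 (ZT14.5 ± 0.79), Per1 (ZT15.0 ± 1.28), Cry2 (ZT15.6 ± 1.92) and Per2 (ZT17.4 ± 1.22) to Cry1 (ZT21.7 ± 1.67). To compare their courses without any scaling between libraries, the difference in log2 CPM of 2 members was taken in each library, and a 24-h cosinor of it was tested by a permutation test with 100000 resamples of the time labels. All 15 pairs of members were tested and adjusted by Benjamini-Hochberg over the 15 pairs, and since the genes were chosen with earlier results of these data known, these p-values describe the pairs and are no independent support.

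The ratio of Per3 to Cry1 took the largest swing, with an amplitude of 0.78 and a peak at ZT13.0 (permutation p = 0.00245, adjusted p = 0.0184). The mean log2 ratio climbed from 0.08 ± 0.62 (SD, n = 3 for each mean) in the ZT0 group over 0.34 ± 0.51 (ZT4) and 1.295 ± 0.73 (ZT8) to 1.85 ± 0.67 (ZT12), and then read 1.21 ± 0.33 (ZT16) and 1.17 ± 0.41 (ZT20). Every animal at ZT12 stood above every animal at ZT0 and ZT4.

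Per3 over Cry2 followed almost the course of Per3 itself, with an amplitude of 0.57 and a peak at ZT14.4 (permutation p = 0.00192, adjusted p = 0.0184). Per3 over Ciart had an amplitude of 0.58 and a peak at ZT15.8 (permutation p = 0.00456, adjusted p = 0.0228), and went from -0.92 ± 0.82 at ZT4 to 0.34 ± 0.36 at ZT16. Per2 over Ciart had an amplitude of 0.58 and a peak at ZT18.8 (permutation p = 0.0122, adjusted p = 0.0457), with -2.15 ± 0.43 at ZT4 and -0.69 ± 0.34 at ZT16. The first of these ratios and that to Cry1 stayed below 0.05 without any single library, with adjusted p up to 0.0473 in each. The ratios of Per3 and Per2 to Ciart did not, with adjusted p up to 0.0728 and 0.0966. For Per3 over Ciart the libraries were ZT4 replicate 2, ZT4 replicate 3, ZT16 replicate 1 and ZT16 replicate 3. For Per2 over Ciart 13 single libraries each raised the adjusted p above 0.05. The other 11 pairs had adjusted p from 0.0808 (Cry1 over Ciart) to 0.148 (Per2 over Per3), which does not show that those members ran in parallel. At least 1 fit without all libraries of 1 replicate number left 0 ratios with an adjusted p below 0.05. Per3 over Cry1 and Per3 over Cry2 were therefore lost there as well.

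**Figure D3:**
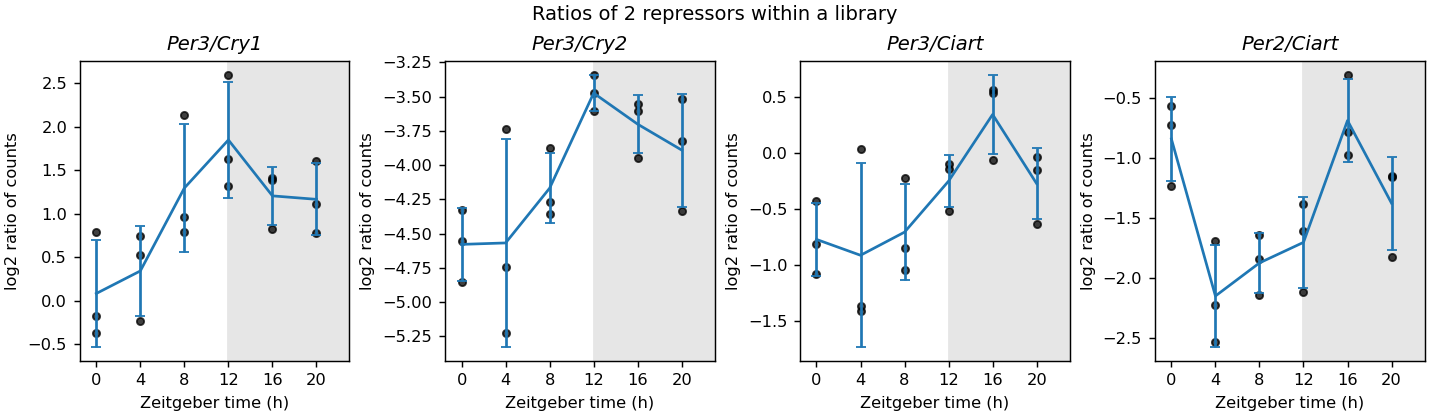
Log2 ratio of 2 members in each of the 18 immunoprecipitates (vertical axes, not starting at 0) against Zeitgeber time in hours (horizontal axis), for the 4 pairs of 15 with an adjusted p below 0.05, with points for animals, lines and bars for mean and SD of 3, and the dark phase shaded. Per3 over Cry1 peaks at ZT12 with a mean of 1.85, and Per3 and Per2 over Ciart are highest at ZT16.

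Member by member, levels over the 18 libraries went together most for Per1 and Per2 (Pearson r 0.70, Spearman rho 0.54, and r 0.43 after the mean of each time was removed). Per3 ran with Cry2 at r 0.54 (rho 0.31) and with Per1 at r 0.38 (rho 0.35), the r with Per1 turning to -0.35 within time points. The lowest CPM of both Per3 and Cry2 was that of ZT4 replicate 3, a shallow library. The 15 pairs ranged from -0.33 (Cry1 and Ciart) to 0.70. All pairs share the same libraries and their scaling, and these values are a description with no test.

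Of the genes tested, those with a course most like each member were found by Pearson correlation of log2 CPM over the 18 libraries. For Per1 they were Trim27 (r 0.82, rho 0.81), Zfp335 and Klhl18. For Per2 they were Gfap (r 0.79, rho 0.81), the astrocyte filament gene and one of the astrocyte markers above, Mpeg1 and Vac14. Per3 was nearest to Gm35723 (r 0.81, rho 0.78), Zfp7 and Tnfaip6, and Cry1 to Lap3 (r 0.86, rho 0.77), Fbln5 and Ccz1. Cry2 was nearest to Nol4 (r 0.84, rho 0.68), Larp4 and Actr5, and Ciart to Hif3a (r 0.81, rho 0.78), Tap2 and Snx30. Some of these genes were scarce, with means of 0.58 CPM for Gm35723, 0.76 for Mpeg1, 1.02 for Tnfaip6 and 1.29 for Hif3a. No member was among the 3 nearest genes of another because members were left out of this search, and the highest of many correlations is high by choice.

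Against the input, the members fell into separate groups: 3 were depleted from cholinergic ribosomes, Cry2 was higher there, and Per1 and Ciart were near the level of the whole cord. The input is 1 pooled library, so its intervals (exact Poisson, 95%) cover counting error only and no test was made. With a gene counted as depleted when 2-fold or more lower on average and lower in all 18 libraries, 3 of 6 members were depleted against 24.1% of the 14364 genes compared, and 0 were enriched.

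Cry2 had 63.9 CPM in the input and was above it in 18 of 18 precipitates, with a log2 ratio of 0.96 (0.87 to 1.04), just under the 2-fold line. Ciart, at 8.05 CPM in the input, was above it in 15 of 18, with a log2 ratio of 0.32 (0.09 to 0.56). Per1 had 29.3 CPM in the input and was below it in 13 of 18, at a log2 ratio of -0.13 (-0.25 to -0.00). These 2 genes straddle the input over the day, with the mean of Ciart from -0.06 at ZT16 to 0.69 at ZT12 and that of Per1 from -0.61 at ZT4 to 0.04 at ZT12.

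Cry1 was the most depleted, with 16.6 CPM in the input and a log2 ratio of -2.15 (-2.31 to -1.99). Per3, at 27.9 CPM in the input, had -1.84 (-1.96 to -1.71), and Per2, at 11.6 CPM, had -1.62 (-1.81 to -1.42). All 18 precipitates were below the input for these 3 genes. At its highest time Per3 was still at -1.35, and Per2 reached -1.26 at ZT0. The marker lists give the scale, with median log2 ratios of 2.36 for cholinergic neurons, -3.48 for oligodendrocytes and -4.37 for astrocytes, and -0.07 over all genes compared. The ratios moved with scaling as all genes did: with library totals the median of all genes moved by -0.30 and with upper-quartile scaling by 0.13, Cry2 then read 0.66 and 1.08, and Per1 read -0.42 and 0.00. Relative to the median of all genes Cry2 was at 1.03 under all 4 scalings. That constancy follows from a shift common to all genes and is no separate support for the level of Cry2.

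**Figure D4:**
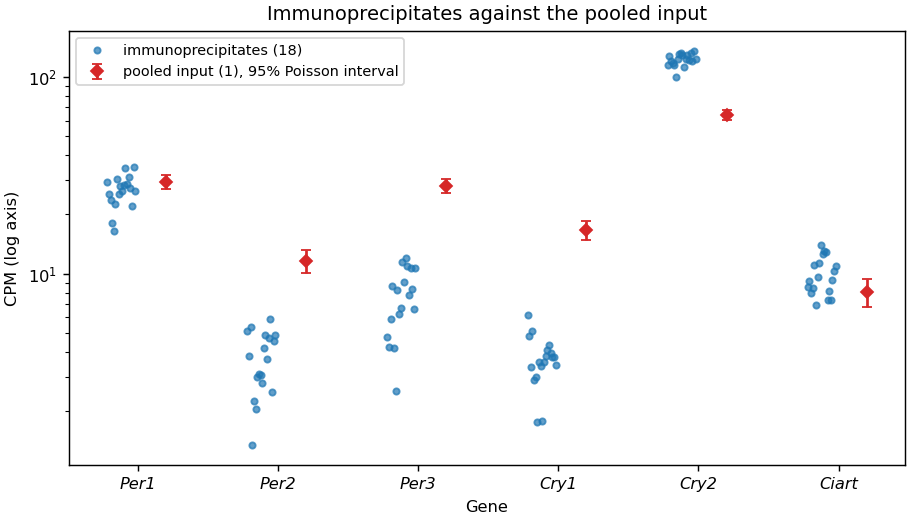
CPM on a log axis (vertical) for each of the 6 repressor genes (horizontal) in 18 immunoprecipitates (blue points, spread sideways for sight) and 1 pooled input (red diamond, 95% Poisson interval of its count). Blue points were scaled over the 18 immunoprecipitates and the input over all 19 libraries. The mean of Per1 in the immunoprecipitates was 26.6 CPM on the first scale and 26.9 on the second. All blue points lie above the input for Cry2 and below it for Per2, Per3 and Cry1, and both sides of it for Per1 and Ciart.

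Levels between genes were compared per kilobase of merged exons in GENCODE M21. Cry2 stood at 28.3 ± 2.01 CPM per kb (SD, n = 18), Ciart at 5.07 ± 1.11, Per1 at 4.73 ± 0.864, Per3 at 1.29 ± 0.465, Cry1 at 1.22 ± 0.3504 and Per2 at 0.639 ± 0.221. Cry2 exceeded Ciart, Per1 exceeded Per3 and Cry1 exceeded Per2 in 18 of 18 libraries. Ciart exceeded Per1 in 10 of 18 and Per3 exceeded Cry1 in 8 of 18, so these neighbours did not differ beyond their spread. Of the sum of the 6 members per kb, Cry2 took 68.6% in the precipitates and 40.7% in the input, whereas Cry1 took 2.97% and 15.2%.

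Around these repressors, 27 other clock genes were followed from lists of activators (4), nuclear receptors of the REV-ERB and ROR loop (5), PAR bZIP factors with Nfil3 (4), other repressors of the activators (3) and kinases, ligases and partners of PER and CRY (11). All 27 were tested and the cosinor in edgeR called 3, against 6.24% of all genes, with 13 at an unadjusted p below 0.05, against 4153 of all 15572. The median amplitude of the 27 was 0.16, against 0.18 over all genes. The called genes were Dbp, a PAR bZIP activator at D-boxes (amplitude 0.48, peak ZT11.9, edgeR adjusted p = 0.0274), Tef of the same family (0.22, ZT11.1, adjusted p = 0.0377) and Csnk1d, a kinase that phosphorylates PER proteins (0.20, ZT7.70, adjusted p = 0.0373). No activator, nuclear receptor or other repressor was called. The highest amplitude was 0.29 among the activators (Arntl, which encodes BMAL1, peak ZT21.5) and 0.29 among the nuclear receptors (Rorb), while the other repressors reached 0.22 (Bhlhe41).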

How the data were processed

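RiboTag immunoprecipitates (18 libraries, 6 time points, 3 animals each) and 1 pooled input were used, with groups and replicate numbers taken from the sample titles. The authors aligned paired-end reads with STAR 2.7.5 to mm10 and quantified genes with RSEM, and they deposited expected counts (estimated counts) per gene with no normalization. All value columns were mapped to a sample by name, and 1.90 to 3.68% of values per library were not whole. The study names an Ensembl annotation, whereas gene names, coordinates and promoters here are from RefSeq on GRCm38.p6, matched by symbol.

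The deposited expected counts were rounded to whole numbers, filtered with filterByExpr and scaled by TMM in edgeR 4.0.16 (R 4.3.3), and log2 CPM carried a prior count of 2. The quasi-likelihood F-test of edgeR was fitted to the 18 immunoprecipitates over all 15572 genes kept, for a 24-h cosinor, any difference among times and all 15 pairs of times. JTK_Cycle used 18 templates, Bonferroni adjustment within a gene and an exact null in which time points of equal cosine were merged. Benjamini-Hochberg adjustment ran over all genes at 0.05. The common biological coefficient of variation was 19.2%. The input ratio used 19 libraries scaled together and genes averaging at least 1 CPM over both sides. Scripts were tested on simulated data.

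The members and lists were chosen with earlier results of these data known. Named genes were the 6 members, the called and highest-amplitude genes of each clock list, the 3 most correlated genes per member, and genes overlapping a member or within 5 kb. Alternatives were other scalings, filters of at least 10 and at least 1 count in total, DESeq2 1.42.0, a replicate block, an oligodendrocyte score, other JTK_Cycle settings, a prior count of 0.5 and leaving out libraries. Adding the first principal component and leaving out the 2 shallowest libraries were chosen after seeing the data. All samples were processed on the same day per the methods of the study. No 2 libraries shared more than 3.33% of equal counts. Values of some genes of the clock lists are not reported here.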

Additional observations from a re-analysis of the deposited data

How the results depend on the processing

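Counting error was largest for Per2 and Cry1, whose libraries held as few as 13 and 19 counts. The other 3 scalings and the filter of at least 10 counts kept the counts of members called in the cosinor (1), JTK_Cycle (0), the time test (0) and the pairs of times (1). The cosinor count was 0 with the oligodendrocyte score (adjusted p of Per3 0.0584, amplitude 0.59), with the first principal component (0.129, 0.57) and without the 2 shallowest libraries (0.0924, 0.51), all by edgeR. It was also 0 in each fit without all libraries of 1 replicate number. JTK_Cycle adjusted within the gene alone called 1. The time test called 2 with the filter of at least 1 count (Per1 and Per3) and 4 with DESeq2. Pairs of times gave 7 calls with the filter of at least 1 count, all of Per1, Per2 and Per3 and without that of Ciart, 3 with DESeq2 and 0 with the first principal component. The number of members enriched against input was 1 (Cry2) with upper-quartile scaling. Leaving out single libraries or all libraries of 1 replicate number gave 0 to 1 members in the cosinor, 0 to 0 in JTK_Cycle, 0 to 3 in the time test (1 without ZT4 replicate 1, 3 without ZT8 replicate 1), 0 to 5 pair calls (5 without ZT8 replicate 1) and 0 to 6 log ratios. The share of all genes called in the cosinor, time test and pairs of times was not recorded under these alternatives or the replicate block below. The exception was DESeq2, with 2247 of 15572 genes in the cosinor and 2502 in the time test. The other counts of members therefore stand without a background and may follow changes over all genes. Causes were not tested.

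Over all genes tested, libraries with the same replicate number did not deviate together (correlations from -0.15 to 0.18, 4 of 45 above 0.1). Libraries with different numbers gave -0.21 to 0.18, with 9 of 90 above 0.1. Correlations over all genes cannot decide whether the numbers pair animals. With a replicate block the time test called 2 members, Per2 and Per3 (edgeR adjusted p 0.0491 and 0.0461), and the cosinor, JTK_Cycle and log ratio counts stayed at 1, 0 and 4.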

Other observations

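The clock lists around the repressors were also read against the pooled input. Among them Csnk1d, a PER kinase, was over 2-fold higher on average and higher in all 18 immunoprecipitates, with a log2 ratio of 1.35. Genes over 2-fold lower on average and lower in all 18 included the activators Clock (-1.11) and Npas2 (-2.66), the nuclear receptor Rorb (-2.92) and the PAR bZIP factors Dbp (-1.68) and Hlf (-2.12). Median log2 ratios were -0.76 over the 4 activators, -0.29 over the 5 nuclear receptors, -1.03 over the 4 PAR bZIP genes with Nfil3, -0.11 over the other 3 repressors and -0.02 over the 11 kinases, ligases and partners, beside -0.87 over the 6 members and -0.07 over all genes compared. These genes were named after their values were seen, and with 1 input library none of these ratios has a test.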
